A study of Homo sapiens with 2 samples.

Results

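Potassium channel genes were taken as all array rows whose annotated gene symbol starts with KCN, goes on with at least 1 further letter and then has a digit. This gave 102 rows and 85 genes, out of 45033 rows and 16583 named genes on the array. They comprised 35 voltage-gated alpha subunits, 16 auxiliary or interacting subunits, 14 inward rectifiers, 14 two-pore channels and 6 calcium- or sodium-activated channels. The rule uses gene symbols alone, but it was chosen with earlier results of these data known.

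RNA came from A375, an established human melanoma cell line, which carried either an empty lentivirus (empty vector) or a lentivirus encoding a hairpin RNA that targets BMI1 (shBMI-1). BMI1 is a subunit of Polycomb repressive complex 1, which silences genes through chromatin. Each group was 1 culture on 1 single-colour array, so no value has a replicate error and no test between the groups was possible. Whether the cells were clones or pools of infected cells is not given in the sources used here.

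Potassium channels let potassium ions cross membranes and set the resting voltage of the cell. Voltage-gated channels open when the membrane depolarises, inward rectifiers pass current more easily into the cell, two-pore channels carry leak current, and calcium-activated channels link the cell's calcium to its voltage. In melanoma and other tumour cells they are studied for effects on cell volume, proliferation and migration.

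The array signal of BMI1 itself was 68.6 in empty vector cells and 25.8 in shBMI-1 cells, which is 2.66-fold lower, and dim on both arrays. Intensities are linear and in arbitrary units, with medians over all rows of 131.2 and 129.8. A gene is called at or above the brightness limit if its signal, averaged over its rows on the log2 scale, reached that median on at least 1 array. Ratios are log2 of shBMI-1 over empty vector, and their median over the 8921 named genes at or above the limit was 0.09. The only measurable error was the row SD, the spread of ratios among different array rows of one gene at like signal. It shrank with signal, from 0.80 on the log2 scale for mean signals between 32 and 64 to 0.60 between 128 and 256, 0.30 between 512 and 1024 and 0.20 above 4096, and is given beside the ratios as the value for the gene's level. For BMI1, measured by 1 row, the log2 ratio was -1.41 with a row SD of 0.80. At its level, mean signals between 32 and 64, 10.7% of named genes were at least 2-fold lower. This row alone therefore does not show how far BMI1 was lowered. Of the melanoma markers, SOX10, S100B, MCAM and CSPG4 were at or above the limit on both arrays, while MITF, TYR, MLANA, PMEL and TYRP1 were under it. Of the markers of other tissues, KRT5, KRT14, SYP and ACTA1 were at or above it. The neuronal marker SYP was at 3505 and 2155, and the muscle marker ACTA1 at 29557 and 24350. Mean signals of other actin genes over both arrays were 43352 (ACTB), 30505 (ACTG1), 21056 (ACTC1), 555 (ACTA2), 238 (ACTG2) and 17.4 (ACTBL2). Whether the ACTA1 signal came in part from other actin transcripts was not tested. Others on the same lists were under it: the epithelial EPCAM and CDH1, the neuronal SNAP25 (49.2 and 54.2) and the muscle MYH7 (36.8 and 38.8). No white blood cell or endothelial marker reached the limit. The part of other cell types in the results was not tested. Fewer cells with a transcript and less of it per cell cannot be told apart.

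Most potassium channel genes gave little signal in A375. Of the 85 genes, 16 (18.8%) were at or above the brightness limit, against 53.8% of all named genes. The limit was reached on both arrays by 13 genes, with the empty vector alone by 2 (KCNA4 and KCND3) and with shBMI-1 alone by 1 (KCNJ15). By family it was reached by 5 voltage-gated, 4 auxiliary, 1 inward rectifier, 3 two-pore and 3 calcium-activated genes. Of the sodium channel genes 0 of 12 and of the calcium channel genes 4 of 24 reached the limit. A list of other potassium transport genes, which holds pumps and cotransporters but also the HCN pacemaker channels and the TMEM175 and TMEM38 channels of internal membranes, reached it in 11 of 21 cases. Intensities of different genes also depend on their probes and are not compared as RNA amounts. Genes just outside were KCNJ14, at 129.4 with shBMI-1, KCNE5, at 128.5 with the empty vector, and KCNC4, at 126.4 with shBMI-1. Just inside was KCND3, at 133.4 with the empty vector.

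Among the 16 genes, more were lower than higher with shBMI-1. Ratios were below 0 in 12 and above 0 in 4, with a median of -0.23. Of all named genes at or above the limit, 3567 of 8921 were below 0. In the 13 genes at or above the limit on both arrays, 10 were below 0 (76.9%) with a median of -0.20, against 38.4% and 0.09 for all named genes measured on both. With no brightness limit the lean was smaller: 50 of 85 genes (58.8%) were below 0, against 44.8% of all named genes, and the median was -0.07. The ratio exceeded the row SD in 8 of the 16 genes, and 2 row SDs in 5 (KCNJ15, KCNA4, KCNAB3, KCNS3 and KCNK5). Of all named genes at or above the limit, 36.1% exceeded 1 row SD and 9.3% exceeded 2. KCNJ15, KCNA4 and KCND3 passed the limit on 1 array alone, so their ratios and directions were tied to the limit. No such share was computed for genes at or above it on both arrays.

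**Figure D1:**
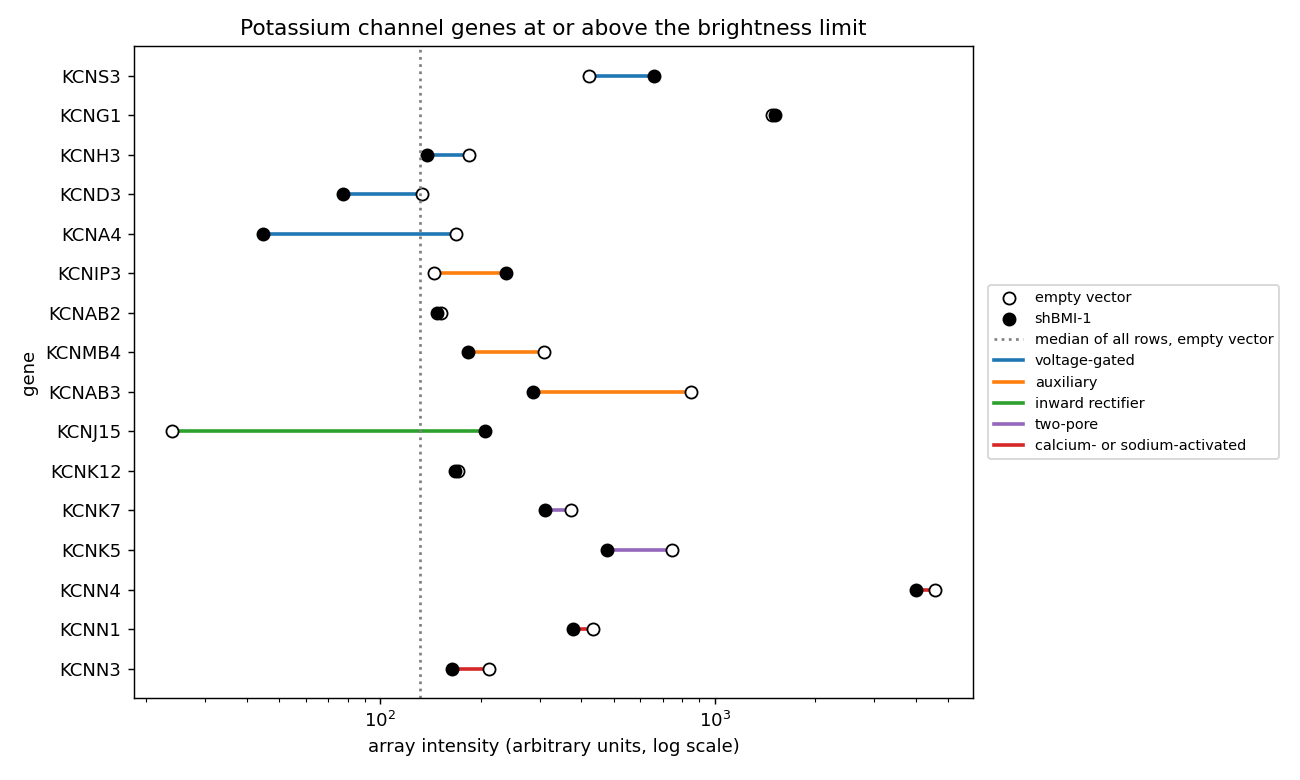
Array intensity (arbitrary units, log scale) of the 16 potassium channel genes at or above the brightness limit, 1 line per gene coloured by family, with an open point for the empty vector array and a filled point for the shBMI-1 array; the dotted line is the median of all rows with the empty vector. The filled point lies left of the open point in 12 genes, and KCNJ15 spans the widest interval, from 23.9 to 205.5.

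Past 2-fold and at or above the limit were 3 genes. KCNJ15, the inward rectifier Kir4.2, had an intensity of 23.9 in empty vector cells and 205.5 in shBMI-1 cells, 8.59-fold higher (log2 ratio 3.10, row SD 0.76). It passed the limit through the array on which it was high. KCNA4, the fast-inactivating channel Kv1.4, had an intensity of 169.0 in empty vector cells and 44.6 in shBMI-1 cells, 3.79-fold lower (log2 ratio -1.92, row SD 0.76). It passed the limit through the empty vector array. KCNAB3, a cytosolic beta subunit of voltage-gated channels, was at 849.2 in empty vector cells and 285.9 in shBMI-1 cells, 2.97-fold lower (log2 ratio -1.57, row SD 0.42), and was above the limit on both arrays. Of the 13 genes at or above it on both arrays, KCNAB3 was the 1 that was at least 2-fold lower and 0 were at least 2-fold higher, where 1.08% and 1.16% of all named genes with both signals that high were. Each of the 3 was measured by 1 row. Thus 1 of 16 genes (6.25%) was at least 2-fold higher, where 3.23% of all named genes at or above the limit were, and 2 of 16 (12.5%) were at least 2-fold lower, where 3.55% were. Counts of 1 and 2 genes give no ground to set these shares apart from the background. With 50 added to each intensity the log2 ratio was 1.79 for KCNJ15, -1.21 for KCNA4 and -1.42 for KCNAB3. Neither KCNJ15 nor KCNA4 passed when the limit was set on the mean signal of the arrays.

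With no brightness limit, 5 of 85 genes (5.88%) were at least 2-fold higher, against 5.32% of all named genes, and 5 (5.88%) at least 2-fold lower, against 5.53%. Both shares lay near the background. The other 4 higher genes were the inward rectifiers KCNJ16 and KCNJ14 and the voltage-gated KCNC4 and KCNA3. The other 3 lower genes were the large-conductance channel gene KCNMA1 and the voltage-gated KCNH1 and KCND2.

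**Figure D2:**
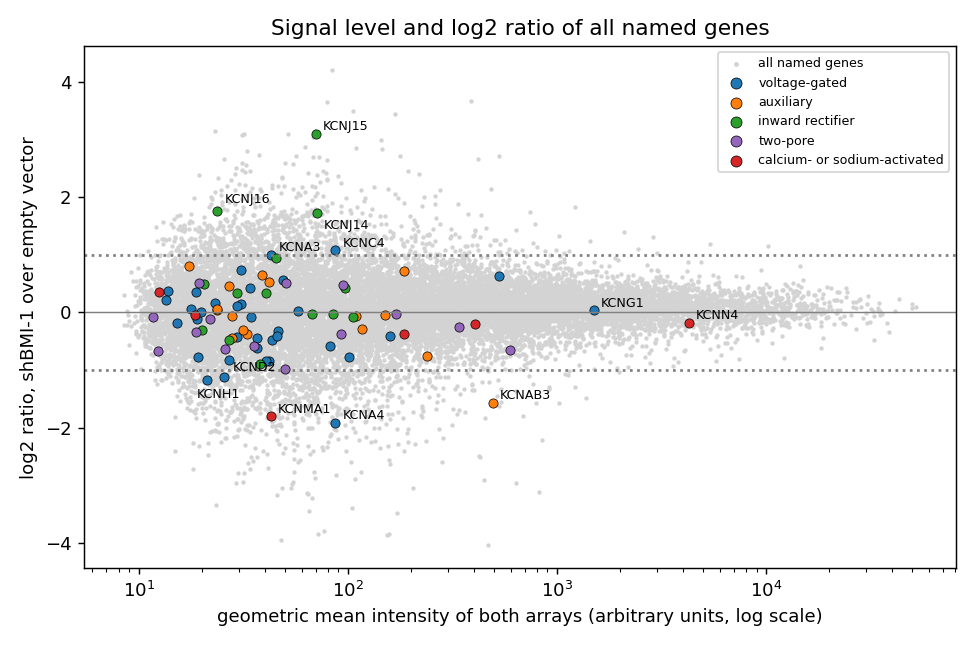
Log2 ratio of shBMI-1 over empty vector against the geometric mean intensity of both arrays (log scale) for all 16583 named genes (grey) and the 85 potassium channel genes (coloured by family); dotted lines mark 2-fold. The spread of all genes narrows with signal, most potassium channel genes lie at the dim end, and KCNAB3 lies at a brighter level than the other members past 2-fold.

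The sequences at the annotated starts of the members at either end of the scale are shown because Polycomb complexes are known, in mammals, to gather at promoters rich in CG dinucleotides. They are RefSeq windows of build GRCh38.p14, 250 bases before to 50 after the start of each gene, read 5′ to 3′ on the gene's strand, with every CG in capitals. KCNJ15 lies at chr21:38272258-38272557 (plus strand), KCNA4 at chr11:30016981-30017280 (minus strand) and KCNMA1 at chr10:77637759-77638058 (minus strand).
KCNJ15: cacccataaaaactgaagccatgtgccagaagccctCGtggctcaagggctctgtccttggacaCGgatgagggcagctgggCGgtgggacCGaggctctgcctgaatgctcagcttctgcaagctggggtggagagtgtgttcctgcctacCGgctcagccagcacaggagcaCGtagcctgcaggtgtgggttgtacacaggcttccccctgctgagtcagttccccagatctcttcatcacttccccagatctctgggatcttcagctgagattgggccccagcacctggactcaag
KCNA4: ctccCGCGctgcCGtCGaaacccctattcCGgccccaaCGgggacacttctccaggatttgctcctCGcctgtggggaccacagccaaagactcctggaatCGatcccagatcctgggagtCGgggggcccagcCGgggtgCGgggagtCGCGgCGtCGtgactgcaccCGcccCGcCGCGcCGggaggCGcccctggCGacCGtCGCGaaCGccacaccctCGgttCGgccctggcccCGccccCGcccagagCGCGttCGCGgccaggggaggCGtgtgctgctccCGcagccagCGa
KCNMA1: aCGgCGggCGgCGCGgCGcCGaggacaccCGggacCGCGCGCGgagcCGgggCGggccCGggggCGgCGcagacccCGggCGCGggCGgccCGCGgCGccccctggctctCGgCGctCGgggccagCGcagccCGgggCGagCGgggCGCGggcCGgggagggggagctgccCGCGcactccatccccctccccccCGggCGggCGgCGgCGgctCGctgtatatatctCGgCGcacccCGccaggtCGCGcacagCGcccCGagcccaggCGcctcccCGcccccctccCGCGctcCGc
The higher gene had few CG and the lower genes many. The KCNJ15 window held 6 CG, more than 33.7% of all 35116 windows of this length. The KCNA4 window held 37, more than 88.7%, and the KCNMA1 window held 54, more than 99.5%. CG reads the same on both strands, it occurs in 96.0% of all windows, and their median count is 14. A RefSeq start need not be the start used in A375.

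Windows were matched for 67 of the 85 genes. Of the 5 genes at least 2-fold higher with no brightness limit, KCNA3 held 1 CG, KCNJ16 held 4, KCNJ15 held 6, KCNJ14 held 7 and KCNC4 held 41. Of the lower genes, KCND2 held 21, KCNH1 32, KCNA4 37 and KCNMA1 54, and KCNAB3 had no match. The ranges overlapped through KCNC4 alone, but these few genes were picked by their ratios and mostly lay under the limit. Members inside 2-fold did not all follow this order: KCNJ6 (log2 ratio 0.95) held 33 CG and KCNJ13 (-0.89) held 1, while KCNK1 (-0.99) held 38. Among all named genes with no brightness limit the medians were in the other order, but the counts overlapped widely. The median was 19 CG (quartiles 5 and 29, range 0 to 55) in genes at least 2-fold higher. It was 14 (quartiles 4 and 27, range 0 to 65) in those at least 2-fold lower. Level went with CG as well: members at or above the limit had a median of 31 CG (11 of 16 matched) and those under it 18 (56 of 69 matched), against 26 and 17 for all named genes.

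**Figure D3:**
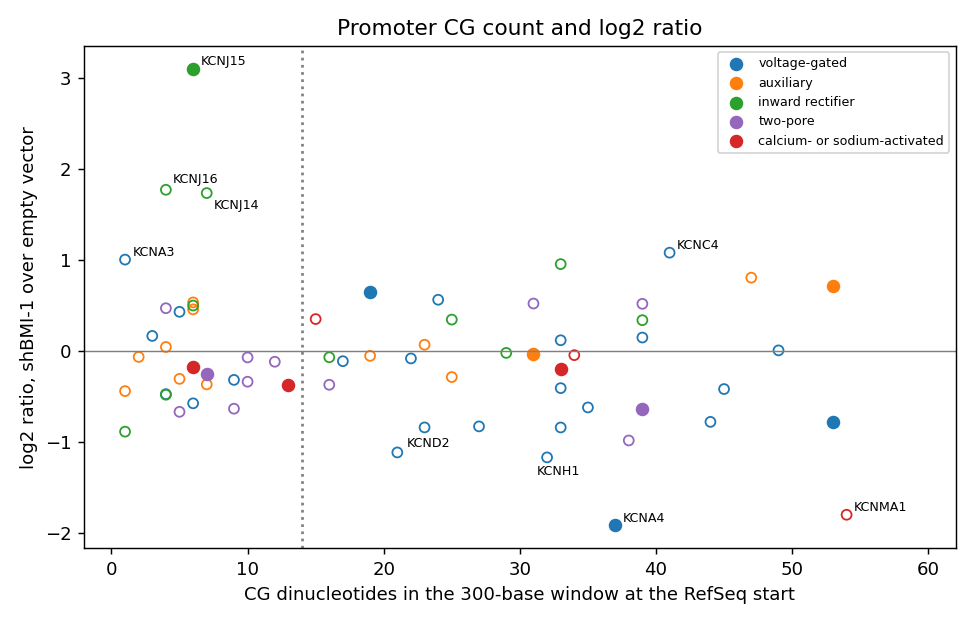
Log2 ratio of shBMI-1 over empty vector against the number of CG dinucleotides in the 300-base window at the RefSeq start, for 67 potassium channel genes; filled points are at or above the brightness limit, and the dotted line is the median of all windows, 14. KCNJ14, KCNJ15, KCNJ16 and KCNA3 lie at 7 CG or fewer above 2-fold, and KCNC4 at 41; the lower genes lie at 21 to 54.

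The calcium- and sodium-activated family was lower or near 0 in each gene except KCNT2. KCNMA1 encodes the pore of the large-conductance BK channel, which opens with calcium and voltage, and was measured by 2 rows. The row of transcript NM_002247 was at 168.6 in empty vector cells and 50.8 in shBMI-1 cells, and that of NM_001014797 at 37.99 and 10.3. The rows were 3.32-fold and 3.67-fold lower (log2 ratios -1.73 and -1.88), but the second row was dim on both arrays, and its signal in shBMI-1 cells was at the 0.863 percentile of the array, so its fold has little weight beside the first. The average over rows lay under the limit (80.0 and 22.9, log2 ratio -1.80, row SD 0.80), while NM_002247 alone passed it. That row passed through the empty vector array alone, so its ratio and direction were tied to the limit. Over single rows, 21 of the 102 were at or above the limit. Of these, 1 was at least 2-fold higher (KCNJ15) and 3 were at least 2-fold lower (KCNA4, KCNAB3 and KCNMA1). Of all named rows at or above it, 3.26% were higher and 3.62% lower by as much. Among the KCNJ15, KCNA4, KCNAB3 and KCNMA1 rows, only that of KCNAB3 reached the limit on both arrays.

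The small- and intermediate-conductance channels, opened by calcium through calmodulin, differed little. KCNN4, the intermediate-conductance channel, was at 4549 in empty vector cells and 4013 in shBMI-1 cells (log2 ratio -0.18, row SD 0.20). The small-conductance KCNN1 was at 432.3 and 377.0 (-0.20, row SD 0.42), and KCNN3 at 211.9 and 163.6 (-0.37, row SD 0.60). All 3 were lower with shBMI-1 by less than the row SD. The sodium-activated KCNT1 (18.8 and 18.2) and KCNT2 (11.1 and 14.1, log2 ratio 0.35) were dim on both arrays. The family median was -0.20 over the 3 genes at or above the limit and -0.19 over all 6.

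Auxiliary subunits of BK channels gave lower or mixed values. KCNMB4, a beta subunit known from brain, was at 309.7 in empty vector cells and 183.4 in shBMI-1 cells, 1.69-fold lower (log2 ratio -0.76, row SD 0.60). KCNMB3, another beta subunit, was measured by 4 rows. Its bright rows differed little: NM_171829 was at 543.3 and 490.8 (-0.15), and NM_014407 at 333.1 and 272.4 (-0.29). Its dim rows lay at opposite ends, with NM_171828 at 35.2 and 88.3 (1.33) and NM_171830 at 24.8 and 11.1 (-1.16). KCNMB1 (23.1 and 31.6) and KCNMB2 (35.2 and 28.4) were dim on both arrays. The gamma subunits of BK channels are leucine-rich repeat proteins without KCN symbols. LRRC52 was at 585.8 in empty vector cells and 40.3 in shBMI-1 cells, 14.5-fold lower (log2 ratio -3.86, row SD 0.60). LRRC26 was at 163.8 and 123.3 (-0.41, row SD 0.60), and LRRC55 at 52.6 and 21.5 (-1.29, row SD 0.80), under the limit on both arrays. LRRC52 and LRRC26 reached the limit on the empty vector array alone. The gamma subunit genes come from a list written with earlier results of these data known, and no test of the group was possible.

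The other auxiliary subunits gave values on both sides of 0. KCNAB2, a cytosolic beta subunit like KCNAB3, was at 152.4 and 148.2 (-0.04, row SD 0.60), while KCNAB1 was dim in both of its rows. KCNIP3, a calcium-binding protein that interacts with Kv4 channels, was at 144.7 in empty vector cells and 237.6 in shBMI-1 cells, 1.64-fold higher (0.72, row SD 0.60). The other Kv4-interacting genes KCNIP1, KCNIP2 and KCNIP4 were under the limit on both arrays. KCNIP4 had the largest ratio of the auxiliary genes under the limit (13.1 and 22.9, 0.80) and KCNE2, a single-pass subunit, the smallest (32.7 and 24.0, -0.44). All 5 KCNE genes were under the limit. The auxiliary median was -0.40 over 4 genes and -0.05 over all 16.

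The voltage-gated alpha subunits formed the largest group and were mostly dim: 30 of 35 were under the limit on both arrays. KCNG1, a modulatory subunit with no current of its own, was at 1483 in empty vector cells and 1518 in shBMI-1 cells (log2 ratio 0.03; -0.05 after quantile or loess normalization). KCNS3, also a modulatory subunit that joins Kv2 channels, was at 421.5 and 657.3, 1.56-fold higher (0.64, row SD 0.30). With KCNAB3 and KCNK5, it was one of the genes above the limit on both arrays whose ratio exceeded 2 row SDs. KCND3, the Kv4.3 channel of transient outward currents, was lower in both of its rows. Its row NM_172198 was at 286.7 and 204.6 (-0.49), and NM_004980 at 62.1 and 29.4 (-1.08). KCNH3, an ether-a-go-go-like channel, was at 184.2 and 138.2 (-0.41, row SD 0.60).

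Under the limit, 14 voltage-gated genes were above 0 and 16 below, with ratios from -1.17 to 1.08. KCNH1, the ether-a-go-go channel studied in many tumours, had the smallest ratio, at 31.9 in empty vector cells and 14.2 in shBMI-1 cells. KCNC4, a fast Kv3 channel, had the largest, with rows at 38.4 and 113.9 (1.57) and at 93.2 and 140.2 (0.59). KCNA3, the Kv1.3 channel known from T cells, lay at the 2-fold threshold (30.4 and 60.8, log2 ratio 1.00), and KCND2, the Kv4.2 channel, was 2.17-fold lower (37.6 and 17.3). Except for KCNC4, whose row at 93.2 and 140.2 passed the limit with shBMI-1, these values are in the lower part of the array's range. Ratios past 2-fold are frequent under the limit: of named genes there, 7.77% were at least 2-fold higher, and 7.83% were lower by as much. The related KCNC2, KCNH2 and KCNH7 had rows on both sides of 0. The voltage-gated median was -0.41 over 5 genes and -0.11 over all 35, and it was above 0 under stricter limits (0.03 when the limit applied to the mean signal, over KCNG1, KCNS3 and KCNH3).

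The inward rectifiers were the family with a median above 0 when no limit was set: 0.34 over 14 genes, with 8 above 0 and 6 below. The median of all named genes was 0.06. With 42.9% of the family below 0, against 44.8% of all named genes, the split lay near the background. Their only gene at or above the limit was KCNJ15. KCNJ16, or Kir5.1, forms channels with KCNJ10 or KCNJ15, and was at 12.9 in empty vector cells and 43.9 in shBMI-1 cells, 3.41-fold higher (1.77, row SD 0.72). KCNJ10, or Kir4.1, was at 67.6 and 66.5 (-0.02). KCNJ14, or Kir2.4, was at 38.9 and 129.4, 3.33-fold higher (1.73, row SD 0.76). KCNJ6, a G protein-gated channel, was at 32.5 and 62.9 (0.95, row SD 0.80). All 14 genes were measured by 1 row each, and except for KCNJ15 with shBMI-1 every signal of the family was under the median of its array. In 3 of the 14 (21.4%) the ratio was at least 2-fold higher, against 5.32% of all named genes, and in 0 at least 2-fold lower. The share of named genes at least 2-fold higher was itself larger at the levels of these 3 genes: 8.27% for mean signals between 16 and 32, where KCNJ16 lay, and 8.39% between 64 and 128, where KCNJ14 and KCNJ15 lay. The smallest ratio was that of KCNJ13, or Kir7.1 (51.7 and 27.9, -0.89). KCNJ8 (108.7 and 103.4), KCNJ9 (83.8 and 112.0) and KCNJ12 (85.1 and 83.8) differed by less than the row SD, and KCNJ12 has near-identical gene copies, so its signal is uncertain.

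**Figure D4:**
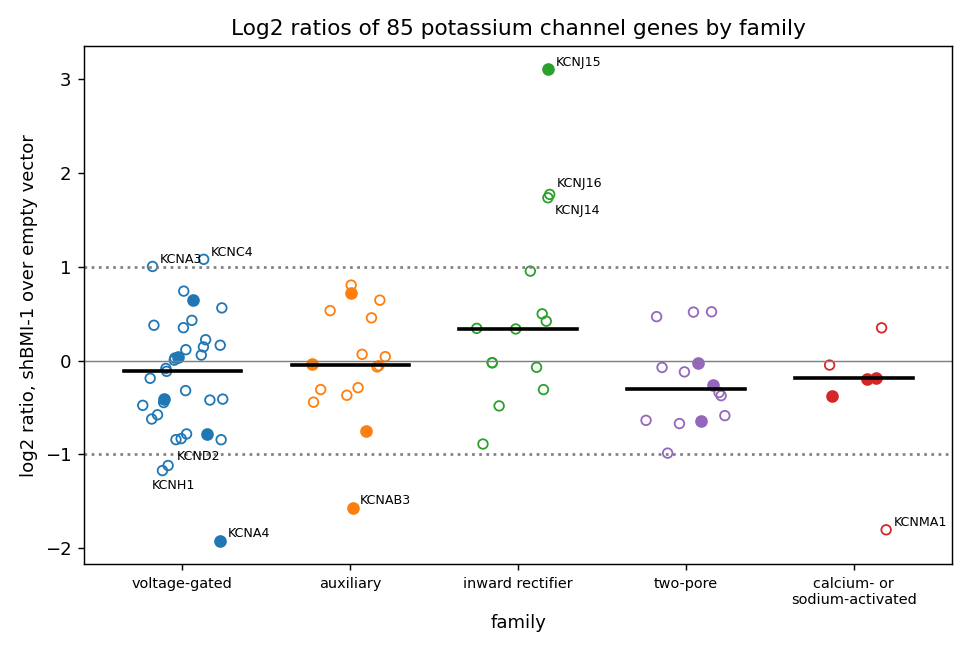
Log2 ratios of shBMI-1 over empty vector for all 85 potassium channel genes by family; filled points are at or above the brightness limit, open points under it, black bars are medians over all genes of a family, and dotted lines mark 2-fold. The inward rectifier median is 0.34 and the two-pore median -0.30, and the named genes are those past 2-fold.

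Of the two-pore channels, 11 of 14 genes (78.6%) were below 0, against 44.8% of all named genes with no limit. Their median was -0.30, and none was past 2-fold. KCNK5, the alkaline-activated leak channel TASK-2, was at 747.0 in empty vector cells and 477.7 in shBMI-1 cells, 1.56-fold lower (-0.65, row SD 0.30). KCNK7, for which no current of its own is known, was measured by 2 bright rows that disagreed. Its row NM_033347 was at 712.3 and 735.5 (0.05), and NM_005714 at 193.5 and 130.8 (-0.57). KCNK12, another subunit with little or no current of its own, was at 170.9 and 167.5 (-0.03, row SD 0.60). Of the 11 genes under the limit, 8 were below 0, and ratios ran from -0.99 for KCNK1 (70.6 and 35.6), the TWIK-1 channel, to 0.52 for KCNK13 (16.2 and 23.2). No two-pore gene was at least 2-fold lower, against 5.53% of all named genes with no limit.

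Rows of one gene gave a view of how far single ratios can be trusted. Of the 85 genes, 72 had 1 row and 13 had several, 30 rows in all. In 6 of the 13 all rows lay on one side of 0 (KCNMA1, KCND3, KCNH5, KCNH6, KCNC4 and KCNAB1), and in 7 they lay on both. The rows differed by over 1 on the log2 scale in 3 genes. KCNMB3 is given above. In KCNC2, a Kv3 channel, NM_139136 was at 94.4 and 28.9 (-1.71) while NM_139137 was at 31.6 and 47.9 (0.60) and NM_153748 at 44.5 and 35.5 (-0.32). In KCNH2, the cardiac hERG channel, NM_000238 was at 25.3 and 44.2 (0.81) and NM_172056 at 34.1 and 23.9 (-0.51). In these 3 genes the rows at either extreme were under the limit. Different rows may measure different transcripts of a gene.

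**Figure D5:**
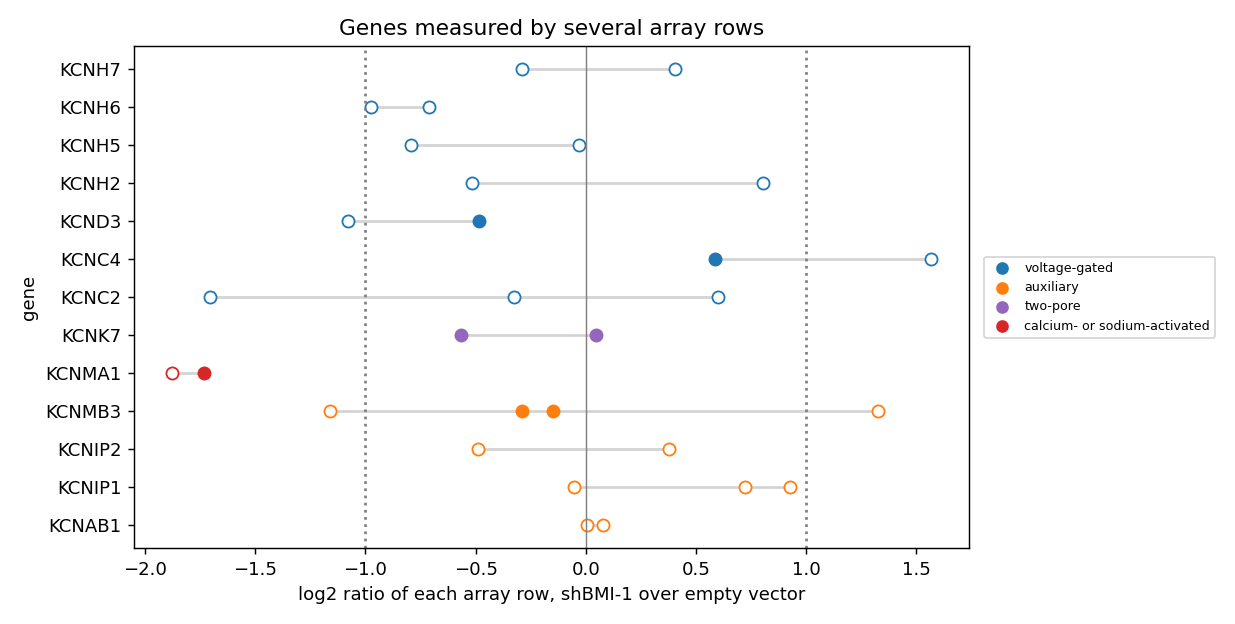
Log2 ratio of each array row, shBMI-1 over empty vector, for the 13 potassium channel genes with 2 or more rows; filled points are rows at or above the brightness limit, open points rows under it, and dotted lines mark 2-fold. The KCNMA1 rows lie together at -1.88 and -1.73, and the dim rows of KCNMB3 lie at -1.16 and 1.33.

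Related genes without KCN symbols were compared from lists. Of 8 measured channel partners, 3 were at or above the limit: LRRC52 and LRRC26, which passed through the empty vector array alone, so that their direction was largely set by the limit, and ABCC8, the sulfonylurea receptor of ATP-sensitive channels (179.0 and 152.3, -0.23). Of the 5 partners under the limit, 3 were above 0 and 2 below. Of the 11 other potassium transport genes at or above the limit, 7 were above 0 and 4 below, none was past 2-fold, and the median was 0.18. Of all named genes at or above the limit, 5349 of 8921 were above 0, with a median of 0.09. At least 2-fold higher were 3.23% of them, and 3.55% were at least 2-fold lower. The sodium pump subunit ATP1B3 was the brightest of the potassium transport genes (2429 and 2758, 0.18, row SD 0.23). The cation-chloride transporter family gene SLC12A8 had the largest ratio (334.5 and 543.6, 0.70, row SD 0.42). Among the calcium channel genes, CACNB3 had the highest signal (246.1 and 296.6, 0.27), and CACNG8 was 2.22-fold higher (59.7 and 132.6, row SD 0.76). CACNG8 passed the limit through the shBMI-1 array alone. The other 2 at or above the limit were lower: CACNG4 was at 144.9 and 72.7 (1.99-fold) and CACNA1A at 162.1 and 115.2 (1.41-fold), and both passed through the empty vector array alone. With no limit, 2 of 24 calcium channel genes (8.33%) were past 2-fold upward and 3 (12.5%) downward. Of all named genes, 5.32% and 5.53% were. Counts this small give no ground to set these shares apart from the background.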

How the data were processed

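Total RNA was copied into double-stranded cDNA from oligo-dT primers, labelled with Cy3 and hybridised to single-colour NimbleGen arrays, per the labels' protocols. The authors deposited a table of 45033 rows with a linear intensity for each array. Scanner software, probe summary and normalization were not given in the sources used here. Of the values of the empty vector array, 19.7% occur exactly on the other array too. No detection calls were used here, so no limit of detection was set, and precision is limited by the number of arrays, 1 in each group.

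Sample titles gave the groups. The platform's annotation table named 18188 rows with 1 symbol each, and 26845 were unnamed. Intensities were turned into log2 values as they stood, without pseudocount or scaling, and rows of one gene were averaged. The threshold was 2-fold, with no p-value. The row SD is pooled in bands of mean level. Genes at or above the brightness limit were all named, and of the others those with the largest or smallest ratio of a family, those past 2-fold, those just outside the limit or with rows that disagree, and a few chosen after their values were seen. Members and lists were chosen with earlier results of these data known. Promoter windows were matched by gene ID.

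Alternatives were a pseudocount of 50, centring on the median, quantile and loess normalization (span 0.3, 3 iterations), each gene's brightest row, other limits (none, the 75th percentile, the mean of both arrays), and thresholds of 1.5-fold and 3-fold. The procedure was tested on simulated data. Calculations used numpy 2.4.6, statsmodels 0.14.6 (loess) and pandas 2.3.3 in Python 3.11.15, and figures matplotlib 3.10.9.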

Additional observations from a re-analysis of the deposited data

How the results depend on the processing

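No paired analysis was possible because each group had 1 array, and no replicate could be left out. The count of potassium channel genes at least 2-fold higher (1) was 2 after loess normalization, where KCNJ14 passed the limit, 5 with no brightness limit, 0 with the limit at the 75th percentile or on the mean of both arrays, and 3 at a threshold of 1.5-fold. The count at least 2-fold lower (2) was 5 with no limit, 1 with the 75th percentile or the mean of both arrays as the limit, 5 at 1.5-fold and 1 at 3-fold. It was 3 when each gene was taken by its brightest row, where KCNMA1 passed the limit through the empty vector array alone. Of all named genes that passed, 3.23% were higher and 3.55% lower in the main setting. These shares were 2.97% and 3.78% after loess normalization (17 members passed), 5.32% and 5.53% with no limit (85), and 3.34% and 3.76% with brightest rows (19). With the 75th percentile they were 1.04% and 1.12% (5), and with the mean of both arrays 1.89% and 1.98% (13). At 1.5-fold they were 10.1% and 8.45%, and at 3-fold 0.897% and 1.48%. With brightest rows the voltage-gated median was -0.19, the auxiliary -0.15 and the two-pore -0.029; the two-pore median was -0.65 with the limit at the 75th percentile. The median of all members was -0.072 with no limit and stayed below 0 under every alternative run. The voltage-gated median was above 0 with the 75th percentile (0.34) or the mean of both arrays (0.033) as the limit and -0.11 with no limit. The auxiliary median was -0.030 with a pseudocount of 50, -0.048 with no limit and -1.57, from KCNAB3 alone, with the 75th percentile. The inward rectifier median, from KCNJ15 alone as reported, was 1.79 with the pseudocount, 2.43 after loess normalization, where it is the midpoint of KCNJ15 and KCNJ14, and 0.34 over 14 genes with no limit, and no gene was left with the 2 stricter limits. Of 16 genes, 14 kept their sign under all 5 scaling and row alternatives. The exceptions were KCNG1 (-0.05 after quantile or loess normalization) and KCNK7 (0.05 in its brighter row). Fewer or more genes pass under other limits by construction; causes of the other shifts were not tested.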
